A study of Mus musculus with 10 samples.

Results

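Arntl, Npas2, Clock, Rora, Cry1, Cry2 and Nfil3 were examined in the lungs of young mice with increased pulmonary flow (IPF). These 7 genes, of 54532 in the deposited expression table, were taken from it by their symbols, and they had been selected on earlier values of the IPF and sham contrast, so their levels and differences are given as a description and carry no test. The list had been named the positive arm of the circadian clock. It holds activators of clock transcription, but Cry1, Cry2 and Nfil3 encode repressors, and it is therefore called the clock activators, cryptochromes and Nfil3 here.

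The IPF group and the sham group each held 5 lungs of wild-type C57BL/6J mice at postnatal day 30 (P30). On day P7 the IPF mice had received an aortocaval fistula, a puncture joining the abdominal aorta and the inferior vena cava that overloads the right heart and the lung vessels with blood, and the sham mice had the same operation without the puncture. Both groups were of the same strain, carried no transgene and were housed in a cycle of equal light and dark. RNA came from the whole lung, and the hour at which each lung was collected is not given in the sources used here. Clock transcripts change with the hour, so in every difference below a difference in the hour of collection between the groups and the surgery cannot be told apart.

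The mammalian clock is a loop of transcription and repression that runs in nearly every cell. ARNTL, also named BMAL1, pairs with CLOCK or with NPAS2 and switches on genes that carry an E-box, among them the Period and Cryptochrome genes. The PER and CRY proteins then gather and block that pair. In a second loop, the nuclear receptors RORA and REV-ERB (Nr1d1 and Nr1d2) compete for the same DNA element in genes such as Arntl, where RORA activates and REV-ERB represses. NFIL3 represses through the D-box, an element at which DBP, TEF and HLF activate. In whole lung the clock runs in airway, alveolar, vascular and immune cells, and transcripts of Arntl and Npas2 are known to peak in antiphase to those of Nr1d1, Nr1d2 and Dbp.

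Levels were deposited as FPKM, counted fragments scaled to gene length and library size, a unit that allows levels of different genes to be compared. Between 15483046 and 19026843 reads per lung were recovered from these values. In 100% of values the reads came out whole within a tolerance of 0.01. Of the X- and Y-linked genes measured, Xist was between 26.8 and 43.2 FPKM in the IPF lungs and between 0.0301 and 0.0767 FPKM in the sham lungs, and Ddx3y, Uty, Kdm5d and Eif2s3y were listed at 0 in all 5 IPF lungs but not in the sham lungs. By these genes the surgery and the sex of the mice, both sexes having been used according to the methods, cannot be told apart in any comparison of the 2 groups. Lung markers were present in every lung, with Sftpc, the surfactant protein of alveolar type II cells, at 14860 ± 771 FPKM in IPF and 14430 ± 2848 FPKM in sham (SD, n = 5 each). In whole lung, fewer cells of a type and less RNA per cell cannot be told apart.

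Stretches of the promoters that hold the elements of the clock loops are printed here because they are the sites through which the products of these genes are known to act on one another. RefSeq windows of the GRCm38.p6 build, from 250 bases before to 50 bases after an annotated start, were matched by symbol for 7 of 7 genes, with 10 windows in all because Clock had 3 and Arntl had 2. Each stretch is written 5′ to 3′ on the strand of its gene, with the element in capitals.
Arntl, chr7:113207532-113207556, plus strand: ggcagaaagTAGGTCAgggacggag
Arntl, chr7:113207496-113207520, plus strand: gtcggaaagTAGGTTAgtggtgcga
Nfil3, chr13:52981036-52981060, minus strand: gctcggaacTGACCTActaacacac
Clock, chr5:76303607-76303630, minus strand: tttggcctcTGACCTgacagatga
Cry1, chr10:85185095-85185144, minus strand: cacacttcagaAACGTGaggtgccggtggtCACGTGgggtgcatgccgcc
Cry2, chr2:92434221-92434244, minus strand: catggtgggAACGTGagggggcgg
The element bound by ROR and REV-ERB was searched on both strands as TAGGTCA and by its core AGGTCA, which TAGGTCA contains. TAGGTCA was found in the windows of Arntl and Nfil3, where Nfil3 has it on the opposite strand, and in 2.61% of all 32851 windows. AGGTCA was found in those 2 genes and in Clock, and in 16.3% of all windows. The variant TAGGTTA, added to the search after the Arntl sequence had been seen, lies upstream of TAGGTCA in Arntl and occurs in 1.44% of all windows. Both Arntl elements lie inside the gene as deposited, at bases 41 and 77 from its first base. The Nfil3 element lies at base 23 of its deposited gene, and the Clock match, from the window of an internal start, at base 1172 of its own. The E-box form CACGTG was found in Cry1 and in 7.15% of windows, and the form CACGTT in Cry1 and Cry2 and in 4.68% of windows. The Cry1 stretch shows both E-box forms, at bases -79 and -60 from the annotated start. The D-box form TTATGNAA was in 0 of the 7 genes and in 3.38% of windows, and Npas2 and Rora held none of the letters searched. A match describes these letters only.

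Arntl encodes the shared partner of both activator pairs. On log2(FPKM + 0.1) it had the largest log2 difference of the list, whereas the fold of the means was larger for Npas2. The Arntl gene lies at chr7:113207465-113314126 on the plus strand (GRCm38, ENSMUSG00000055116). Arntl was at 6.85, 6.83, 5.61, 6.59 and 3.31 FPKM in IPF replicates 1 to 5 and at 0.452, 0.415, 0.315, 0.311 and 0.340 FPKM in sham replicates 1 to 5. Every IPF lung lay above every sham lung, and IPF replicate 5 was the lowest of its group. Mean levels were 5.84 ± 1.50 FPKM in IPF and 0.366 ± 0.0634 FPKM in sham (SD, n = 5 each), 15.9-fold apart. On the scale of log2(FPKM + 0.1), used for all log2 differences below and shrinking those of low genes, the difference of IPF minus sham was 3.63 (SE 0.20). Between 440 and 904 reads lay behind each IPF value and between 38 and 56 reads behind each sham value. Only 2 of the 20448 genes whose mean reached 0.1 FPKM had a larger log2 difference upward.

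Npas2, which encodes a paralogue of CLOCK that can take its place beside ARNTL, followed Arntl closely. The gene lies at chr1:39193731-39363236 on the plus strand (ENSMUSG00000026077). Its levels were 3.56, 3.84, 4.03, 3.61 and 1.29 FPKM in IPF replicates 1 to 5 and 0.165, 0.268, 0.182, 0.213 and 0.137 FPKM in sham replicates 1 to 5. The groups did not overlap, and replicate 5 was again the lowest IPF lung, far from the other 4. The means were 3.27 ± 1.12 FPKM and 0.193 ± 0.0502 FPKM (SD, n = 5 each), 16.9-fold apart, and the log2 difference was 3.44 (SE 0.29). This SE was the largest of the list. About the mean of the 10 lungs, log2 Npas2 was 0.54 in IPF replicate 5 and 1.94 to 2.11 in the other IPF lungs. The sham lungs lay between -2.01 and -1.38, on only 10 to 23 reads per lung.

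Clock, the usual partner of ARNTL and one that in most tissues cycles weakly, differed far less than Arntl and Npas2. The gene lies at chr5:76209868-76304792 on the minus strand (ENSMUSG00000029238). It was at 10.4, 8.87, 8.74, 10.2 and 9.37 FPKM in the IPF lungs and at 7.38, 6.14, 5.39, 5.73 and 7.32 FPKM in the sham lungs. All 5 IPF lungs lay above all 5 sham lungs, with a gap smaller than the range, from lowest to highest lung, inside either group. Mean Clock was 9.51 ± 0.745 FPKM in IPF and 6.39 ± 0.914 FPKM in sham (SD, n = 5 each), 1.49-fold apart with a log2 difference of 0.57 (SE 0.10).

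Rora, the receptor that activates Arntl in the second loop, was the only activator of the list with a lower mean in IPF. It lies at chr9:68653786-69388246 on the plus strand (ENSMUSG00000032238). Rora was at 6.37, 4.90, 5.12, 5.93 and 8.48 FPKM in the IPF lungs and at 10.6, 7.95, 8.06, 7.48 and 9.24 FPKM in the sham lungs. IPF replicates 1 to 4 lay below every sham lung, whereas replicate 5 lay inside the sham range. The means were 6.16 ± 1.43 FPKM and 8.67 ± 1.27 FPKM (SD, n = 5 each), and the log2 difference was -0.50 (SE 0.15).

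The cryptochromes, the repressors that hold the activator pair in check, differed in the sign of their mean difference, and the groups overlapped for Cry1 but not for Cry2. Cry1 lies at chr10:85131700-85185064 on the minus strand (ENSMUSG00000020038). Its levels were 18.4, 17.8, 15.2, 20.2 and 16.8 FPKM in the IPF lungs and 14.3, 14.0, 14.5, 14.7 and 15.6 FPKM in the sham lungs. IPF replicate 3 lay inside the sham range and the other 4 IPF lungs above it. Cry1 had means of 17.7 ± 1.85 FPKM and 14.6 ± 0.615 FPKM (SD, n = 5 each), with a log2 difference of 0.27 (SE 0.07), the smallest of the list. Cry2 lies at chr2:92403646-92434043 on the minus strand (ENSMUSG00000068742). It was at 10.4, 7.50, 8.47, 8.39 and 11.3 FPKM in the IPF lungs and at 18.4, 14.2, 16.0, 16.3 and 14.1 FPKM in the sham lungs. Every IPF lung was below every sham lung, and replicate 5 was the highest IPF lung. Mean Cry2 was 9.21 ± 1.58 FPKM in IPF and 15.8 ± 1.80 FPKM in sham (SD, n = 5 each), a log2 difference of -0.78 (SE 0.12).

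Nfil3, the D-box repressor that is also needed for innate lymphoid cells, stood between Arntl and Clock in the size of its difference. The gene lies at chr13:52967209-52981073 on the minus strand (ENSMUSG00000056749). It was at 8.90, 7.40, 7.70, 8.86 and 6.56 FPKM in the IPF lungs and at 2.49, 2.42, 1.72, 2.28 and 1.62 FPKM in the sham lungs. The groups were widely separated, and replicate 5 was the lowest IPF lung here too. The means were 7.88 ± 1.00 FPKM and 2.11 ± 0.406 FPKM (SD, n = 5 each), 3.74-fold apart, and the log2 difference was 1.87 (SE 0.14), on 235 to 327 reads per IPF lung and 50 to 88 reads per sham lung.

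**Figure D1:**
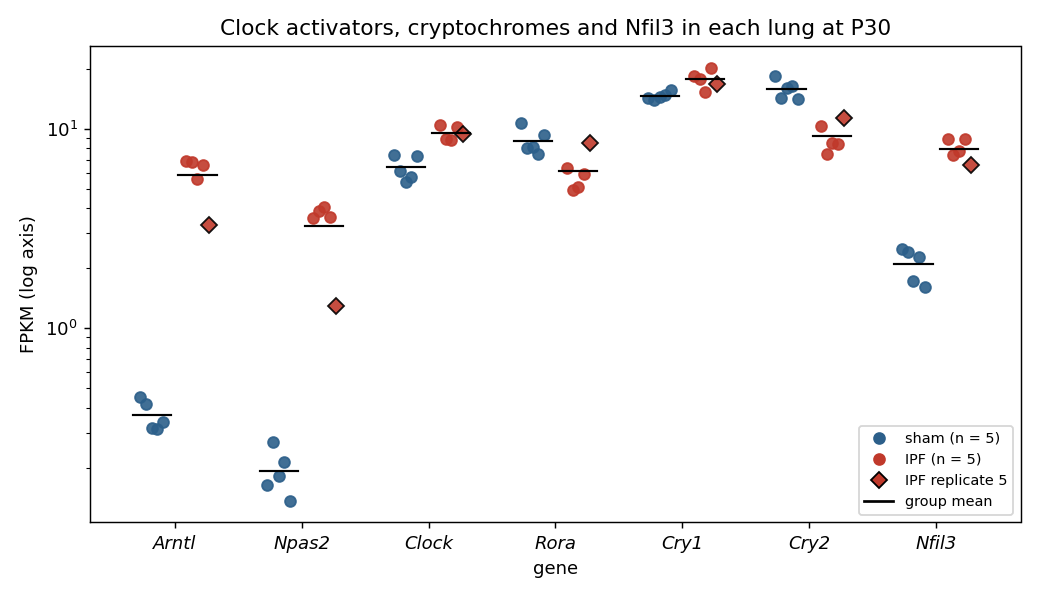
Level of each of the 7 genes in each lung, in FPKM on a log axis. Points are single lungs, the diamond is IPF replicate 5 and the black line is the group mean. Arntl, Npas2, Clock and Nfil3 are higher in all IPF lungs, Cry2 is lower in all of them, and the groups overlap for Rora and Cry1.

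All 7 genes passed the filter on low values. Among the 20448 genes tested, 1.14% were called by limma at a Benjamini-Hochberg adjusted p under 0.05 with an absolute log2 difference above 1, and the list had 3 such genes, Arntl, Npas2 and Nfil3. Genes past the adjusted p alone made up 3.71% of all tested in the upward direction and 2.14% in the downward direction, 5.85% in all. The list held 4 and 1 of them, respectively, and Rora and Cry1 did not pass. The groups did not overlap in 7.29% of all genes tested and in 5 genes of the list. Since the genes were selected on this contrast, nothing is read from these counts. The median log2 difference was 0.57 over the list and 0.0016 over all genes tested.

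The order of the levels differed between the groups. In sham lungs it ran from Cry2 and Cry1 through Rora, Clock and Nfil3 down to Arntl and Npas2. Cry2 and Cry1 overlapped there, with Cry2 the higher in 4 of 5 lungs, and no other neighbours in that order overlapped. In IPF lungs Cry1 stood alone at the top, followed by Clock, Cry2, Nfil3, Rora, Arntl and Npas2, and each of these overlapped with its neighbours. Arntl nevertheless exceeded Npas2 in 5 of 5 IPF lungs, and Rora exceeded Arntl in only 1 of 5, although its mean was the higher.

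Ratios within a lung set the genes against one another free of library scaling, and they too are a description. Arntl stood at 0.0576 ± 0.00789 of the Clock level in sham lungs, with a range of 0.0465 to 0.0676. In IPF lungs the same ratio was 0.615 ± 0.155 and ranged from 0.353 to 0.770 (SD, n = 5 each). The shared partner was thus scarce beside Clock in sham lungs, and approached it in IPF lungs without reaching it in any. Npas2 as a share of the summed Clock and Npas2 FPKM was 3.01% ± 0.978 in sham and 25.1% ± 7.73 in IPF (SD, n = 5 each), with an IPF range of 12.1% to 31.6%. The sum itself was 6.59 ± 0.888 FPKM in sham and 12.8 ± 1.31 FPKM in IPF. By contrast, the ratio of Arntl to Npas2 was alike in the 2 groups, 1.99 ± 0.582 in sham and 1.90 ± 0.427 in IPF (SD, n = 5 each), and the ranges overlapped.

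The cryptochromes were near parity in sham lungs, and Cry1 exceeded Cry2 in the IPF lungs. Cry1 was at 0.934 ± 0.123 of the Cry2 level in sham lungs and at 1.97 ± 0.406 in IPF lungs (SD, n = 5 each), and the ranges of 0.774 to 1.11 and 1.49 to 2.41 did not overlap. Arntl to Cry1 was 0.0252 ± 0.00503 in sham and 0.329 ± 0.0774 in IPF. Arntl to Rora, the gene to its activator, was 0.0424 ± 0.00591 in sham and 1.01 ± 0.372 in IPF. Arntl to Nfil3 differed less, at 0.177 ± 0.0266 in sham and 0.734 ± 0.150 in IPF. Arntl to Nr1d1, the gene to its repressor, spanned 0.00897 to 0.0110 in sham lungs and 0.772 to 6.64 in IPF lungs, where replicate 5 held the lowest value.

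**Figure D2:**
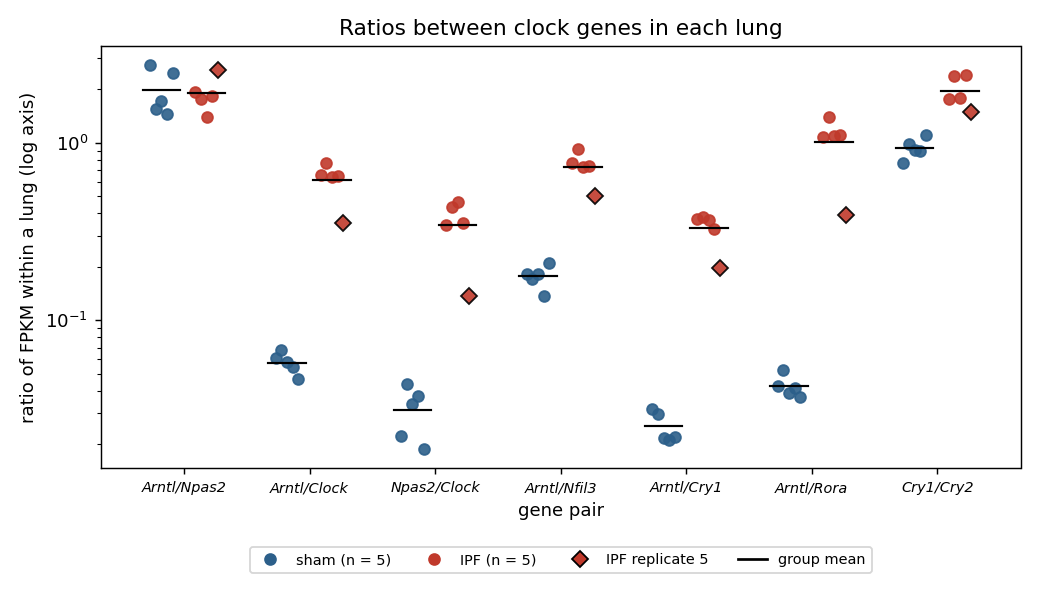
Ratio of FPKM within each lung for pairs of clock genes, on a log axis. Points are single lungs, the diamond is IPF replicate 5 and the line is the group mean. Arntl to Npas2 overlaps between the groups, near 1.90 and 1.99, while Arntl to Clock, Npas2 to Clock and Cry1 to Cry2 do not overlap.

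IPF replicate 5 was singled out after its values had been seen. Of its group it lay nearest to the sham lungs in Arntl, Npas2, Nfil3, Rora and Cry2, that is in 5 of the 7 genes, but not in Clock or Cry1. As a share of the log2 difference of the other 4 IPF lungs, its own difference from sham was 75.3% for Arntl, 60.5% for Npas2, 54.5% for Cry2 and 3.17% for Rora. It was 83.6% for Nfil3, 96.2% for Clock and 71.2% for Cry1. Over the 1469 other genes whose groups did not overlap, replicate 5 was the IPF lung nearest to sham in 34.9%, and each of the other 4 IPF lungs in 13.4% to 18.4%. Its recovered depth of 18453981 reads was within the range of its group. Without this lung the log2 differences were 3.82 for Arntl, 3.73 for Npas2, 1.93 for Nfil3, 0.58 for Clock, 0.29 for Cry1, -0.62 for Rora and -0.86 for Cry2.

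**Figure D3:**
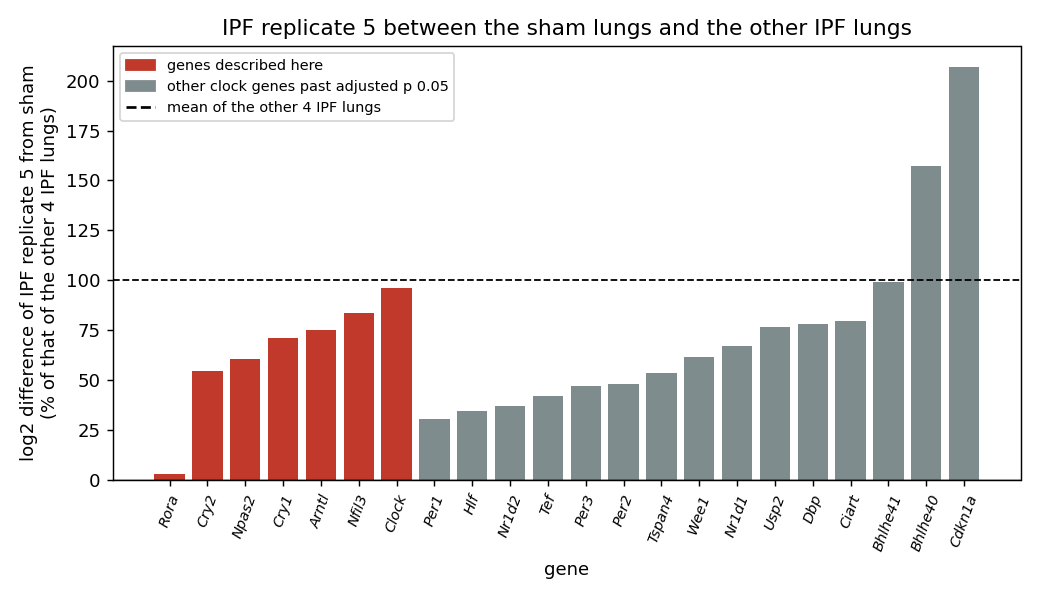
Log2 difference of IPF replicate 5 from the sham mean, as a percentage of that of the other 4 IPF lungs, for the 7 genes (red) and other clock genes past an adjusted p of 0.05 (grey). The dashed line at 100% is the mean of the other 4 IPF lungs. Rora is at 3.17%, Npas2 at 60.5% and Clock at 96.2%, whereas Cdkn1a at 207% lies beyond the line.

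Other marker lists moved with the groups or with this lung. The summed level of 5 B cell markers ranged from 31.7 to 47.8 FPKM in IPF and from 17.1 to 28.0 FPKM in sham, and 5 of 5 rose by limma. The summed level of 10 genes induced by glucocorticoids, hormones that have a daily rhythm and rise with stress, ranged from 181 to 390 FPKM in IPF and from 421 to 521 FPKM in sham. Of these, 8 fell, 0 rose and 2 did not pass, and the highest IPF sum was that of replicate 5. The summed level of 5 neutrophil markers was 291 FPKM in replicate 5, 50.7 to 71.4 FPKM in the other IPF lungs and 13.9 to 70.2 FPKM in sham, with 0 of 5 past the test. Of 5 lung tissue markers 1 rose, the endothelial gene Cldn5, and 0 of 5 ciliated cell markers and 0 of 4 heart muscle markers passed. These lists too were chosen with earlier results of these data known, and their part in the levels of the clock genes was not tested.

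The other genes of the clock pathway, in lists that do not overlap the 7 genes, numbered 37, and 35 were tested. Of these, 15 fell, 2 rose and 18 did not pass an adjusted p of 0.05 (limma, Benjamini-Hochberg over all genes). Their median log2 difference was -0.26. Over all genes tested, 2.14% fell and 3.71% rose at that limit. These lists were chosen with earlier results of these data known. Their counts and p-values, here and in the paragraphs below, are therefore a description and no independent support. Among the direct targets of the ARNTL pairs, 4 of 4 Period genes and partners fell, with Per3 at -2.03 (limma adjusted p = 0.000517) and Ciart at -0.92 (limma adjusted p = 0.0125). The genes of both DEC repressors fell as well, with log2 differences of -1.18 for Bhlhe41 and -0.55 for Bhlhe40 (limma adjusted p = 0.000435 and 0.00825). All of them were lower in 5 of 5 IPF lungs than in any sham lung. The activator genes Arntl, Npas2 and Clock were higher in the same lungs in which these targets were lower.

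The genes of the REV-ERB receptors, which repress Arntl, Npas2 and Nfil3 through the AGGTCA element, both fell. Nr1d1 was at 1.03, 1.54, 2.24, 1.30 and 4.28 FPKM in the IPF lungs and at 42.6, 40.6, 35.1, 32.3 and 31.0 FPKM in the sham lungs. The groups lay far apart, and replicate 5 was the highest IPF lung. The log2 difference was -4.23 for Nr1d1 and -3.26 for Nr1d2 (limma adjusted p = 3.36e-05 and 0.00154). Arntl2, a paralogue of Arntl, did not pass the test (log2 difference -0.35, limma adjusted p = 0.455).

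At the D-box, the activators Dbp, Tef and Hlf fell in 3 of 3 cases while the repressor Nfil3 was higher. Dbp was at 1.90, 1.98, 2.17, 1.74 and 3.49 FPKM in the IPF lungs and between 23.2 and 29.3 FPKM in sham, with a log2 difference of -3.53 (limma adjusted p = 4.99e-07). Replicate 5 was the highest IPF lung. The log2 differences of Tef and Hlf were -1.77 and -1.52 (limma adjusted p = 0.00105 and 0.00214). Of 6 clock output genes tested, 4 fell, among them Wee1, Usp2 and Tspan4, and Cdkn1a rose by 0.53 (limma adjusted p = 0.0180). Nampt did not pass (limma adjusted p = 0.257).

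None of the 16 kinases, ubiquitin ligases and cofactors that act on the clock proteins passed the test. Their log2 differences lay between -0.32 and 0.11, and Btrc, a ligase subunit that marks PER proteins for decay, came nearest (limma adjusted p = 0.0970). Btrc and Csnk1d, a casein kinase that acts on PER proteins, were nevertheless lower in 5 of 5 IPF lungs than in any sham lung, with log2 differences of -0.26 and -0.08. Btrc passed in the limma voom fit on the recovered reads (limma adjusted p = 0.0277). It did not pass in 17 of the 18 alternative settings, where the limma adjusted p reached 0.186. Without IPF replicate 5 the count of other clock genes that fell was 17, with Nampt at -0.36 and Sirt1 at -0.30 added, and 2 rose.

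**Figure D4:**
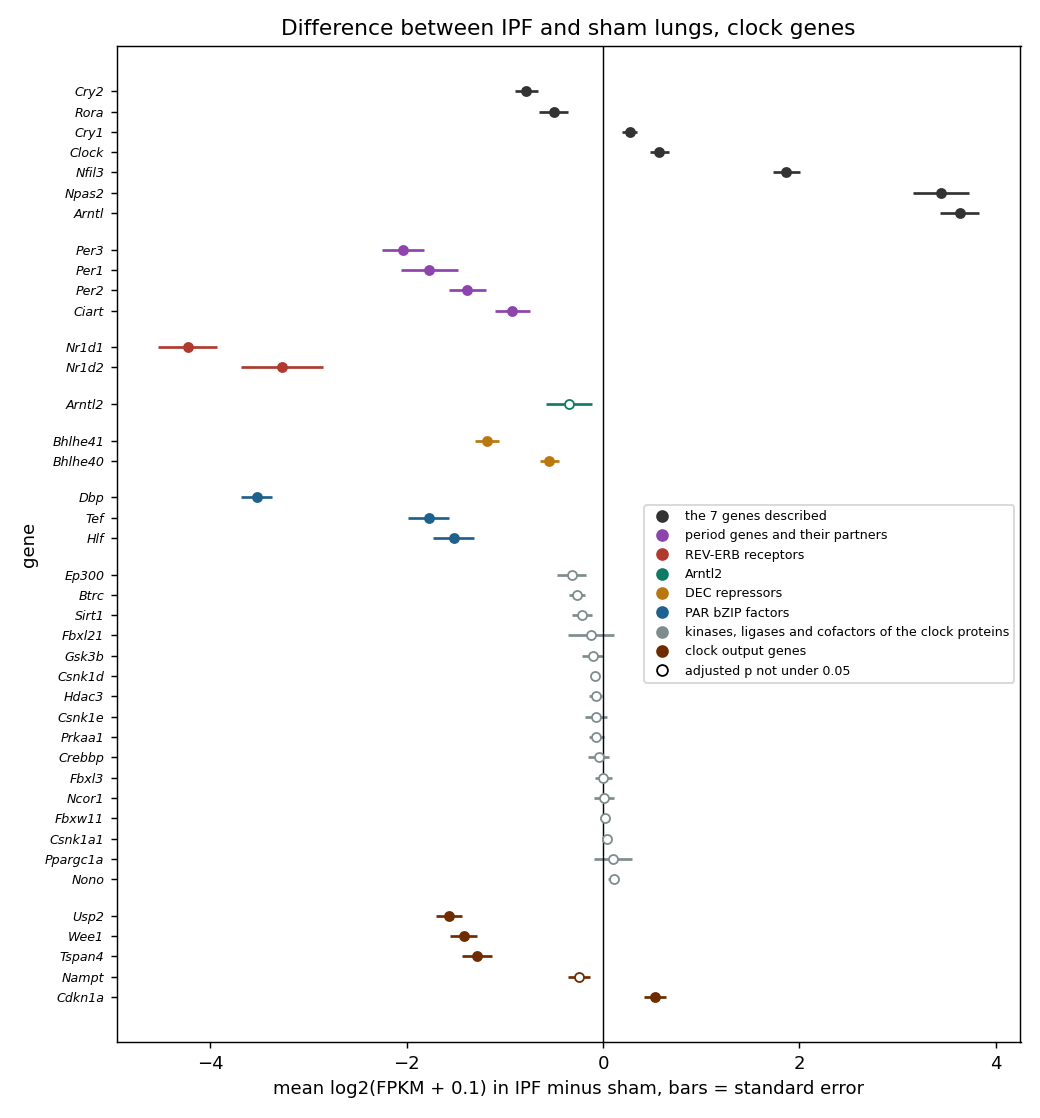
Mean log2(FPKM + 0.1) in IPF minus sham for the 7 genes and other clock genes tested, coloured by list, with bars for the standard error. Filled points of the other lists passed an adjusted p of 0.05 by limma and open points did not, and the 7 selected genes are drawn filled without a test. Arntl at 3.63 and Npas2 at 3.44 lie at one end, Nr1d1 at -4.23 at the other, and the 16 enzymes and cofactors between -0.32 and 0.11.

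The genes with the profile most like that of Arntl were found by the root-mean-square difference of log2(FPKM + 0.1), each gene centred on its own mean over the 10 lungs, among 13444 genes whose mean reached 1 FPKM. Npas2 was nearest, at 0.28, followed by Adm at 0.63, I830127L07Rik at 0.78, Cpa3 at 0.79 and Spon2 at 0.85. Adm, the vasodilator peptide adrenomedullin, was at 13.4 ± 1.78 FPKM in IPF and 2.28 ± 0.280 FPKM in sham, and Cpa3, a mast cell protease, at 4.86 ± 2.00 FPKM and 0.909 ± 0.247 FPKM (SD, n = 5 each). Spon2, a secreted matrix protein, was at 23.1 ± 12.4 FPKM and 2.65 ± 0.495 FPKM. Unlike Arntl, Spon2 in IPF replicate 5 lay inside the sham range, at 2.80 FPKM against 2.07 to 3.14 FPKM. It was at 21.1 to 35.1 FPKM in the other IPF lungs. Of the list, Nfil3 was the next after Npas2, at rank 7, whereas Clock stood at rank 394 and Cry1 at rank 1407. The genes nearest to the mirror image of the Arntl profile were Dbp at 0.15, Nr1d1 at 0.45, Nr1d2 at 0.48, the Y-linked gene Uty at 0.63 and the glucocorticoid-induced gene Fkbp5 at 0.68. Dbp mirrored Arntl more closely than Npas2 resembled it. These genes were chosen by their likeness, which any gene with a large difference between the groups can reach, and no test is given.

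**Figure D5:**
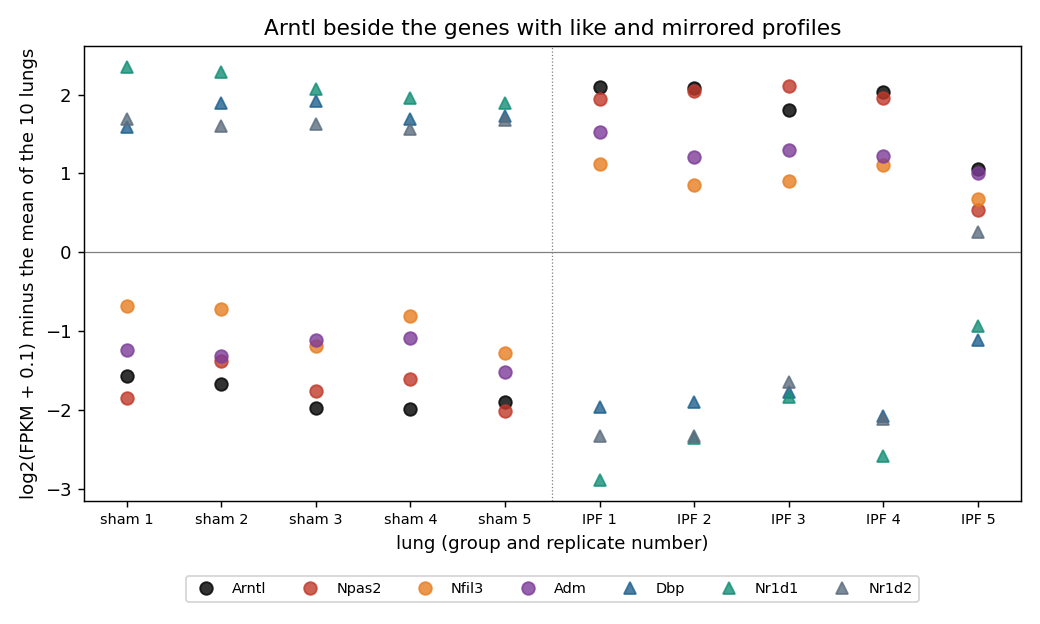
Log2(FPKM + 0.1) in each lung minus the mean of the 10 lungs, for Arntl and for genes with like or mirrored profiles. Circles are genes with a profile like that of Arntl and triangles are mirrored genes. Arntl and Npas2 lie close together (root-mean-square difference 0.28) and are farthest apart in IPF replicate 5, and Dbp lies nearest to the mirror image (difference 0.15).

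Genes that lie beside the 7 genes on their chromosomes were compared to show whether the differences extended along the genome. Of the 42 neighbours taken, 3 on each side of each gene, 4 passed an adjusted p of 0.05 by limma. Over all genes tested 5.85% did so, and nothing is read from so small a count. The median log2 difference of the 42 neighbours was 0.02. None of the 4 that passed lay beside Arntl, Npas2, Clock or Rora. Beside Cry2, Mapk8ip1 fell by 0.38 (limma adjusted p = 0.0148) and Chst1 rose by 0.38 (limma adjusted p = 0.00833). Beside Nfil3, Ror2, a receptor of WNT signalling that is unrelated to the clock receptors, fell by 0.63 (limma adjusted p = 0.00760), and beside Cry1, Tmem263 rose by 0.27 (limma adjusted p = 0.0394). Tmem263 lost its call in 10 of 18 alternative settings, and the other 3 neighbours kept theirs in all 18. The limma adjusted p of Tmem263 was 0.0781, 0.0995 and 0.101 without IPF replicate 1, 2 or 4, and 0.0662, 0.0828, 0.0876 and 0.0663 without sham replicate 1, 2, 3 or 5. The large differences of Arntl, Npas2 and Nfil3 were thus not seen in any neighbour in the same direction at an adjusted p under 0.05.

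Some annotated genes overlap the list, and whether counting used the strand is not given in the sources used here, so their reads cannot be told apart from those of the listed gene. Gm45355, antisense to Arntl, had at most 1 read in any lung, and Gm3617 and Gm20428 in Npas2 at most 4. D930015M05Rik, opposite to Cry2, was at 0.440 FPKM in IPF and 1.02 FPKM in sham (log2 difference -1.10, limma adjusted p = 0.132), with at most 33 reads. Ube2n-ps1, a processed pseudogene on the strand of Clock, was at 3.53 FPKM in IPF and 3.64 FPKM in sham, on at most 37 reads. Clock itself had 2029 to 2547 reads per IPF lung and 1188 to 1671 per sham lung, so the reads of the pseudogene were few beside them. Ube2n-ps1 did not pass (log2 difference -0.04, limma adjusted p = 0.927).

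Finally, the deposited table assigns Arntl, Npas2 and Clock to the bHLH family of transcription factors, Nfil3 to the bZIP family and Rora to the nuclear receptors of the THR-like family. Of the 60 other bHLH genes tested, 9 rose and 4 fell by limma at an adjusted p under 0.05, with a median log2 difference of 0.09. Of the 44 other bZIP genes 4 rose and 4 fell, and of the 15 other THR-like genes 2 rose and 2 fell.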

How the data were processed

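Whole-lung RNA of 10 mice at P30 (5 IPF, 5 sham) was sequenced. The authors deposited FPKM per gene for each lung, and their methods name Fastp for trimming, HISAT2 for alignment and StringTie for quantification. The file gives gene positions whose last gene of chromosome 1 ends at 195323493, as in GRCm38, while their methods name GRCm39. The stated library kit also differs between the methods and the sample records. The authors tested their counts with DESeq2, which was not used here. FPKM multiplied by gene length and divided by the value of 1 read in that lung, taken from its low genes, gave whole reads. The 5 IPF and 5 sham values were compared on log2(FPKM + 0.1) with limma 3.58.1 (lmFit and eBayes with trend, R 4.3.3), for 20448 genes whose mean reached 0.1 FPKM, and p-values were adjusted by Benjamini-Hochberg over all of them. Tables were handled with Python 3.11.15 and pandas 2.3.3. The procedure was tested on simulated data. Nothing says more of the replicates than that they are separate lungs, so p-values measure the spread between these samples.

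The 7 genes and all gene lists were chosen with earlier results of these data known. Named were the 7 genes, other clock genes and the neighbours past an adjusted p of 0.05, the 5 genes nearest to Arntl in profile and the 5 nearest to its mirror image. X- and Y-linked genes and markers were taken by list, and others named by list were chosen after their values were seen. Alternatives were another pseudocount (1 or 0.01), other filters on low values, rescaled or quantile-normalized values, limma voom on the recovered reads, a replicate block and leaving out each lung in turn. Promoter sequences are from RefSeq (GRCm38.p6), and protein sequences were not used here. Some genes that enter the counts are not reported here by name.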

Additional observations from a re-analysis of the deposited data

Results flagged for a closer look

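In groups of 5 lungs, a lung was marked where its gap to the nearest other lung, divided by the range of its group, exceeded the 95% critical value of Dixon's test, 0.71. Of the 64 groups examined, over the 7 genes, the other clock genes past an adjusted p of 0.05 and the ratios, 9 were marked. Chance marks about 5% of independent groups, but these groups share lungs and genes and 7 of the 9 marks fall on IPF replicate 5, so that rate is no measure for the count. Of the 7 genes, Npas2 was marked, with IPF replicate 5 at 1.29 FPKM and the other IPF lungs between 3.56 and 4.03 FPKM. The same lung was the highest of its group for Per3 at 6.87 FPKM, Nr1d2 at 17.3 FPKM, Dbp at 3.49 FPKM, Tef at 39.1 FPKM, Hlf at 9.70 FPKM and Tspan4 at 29.5 FPKM. In the sham group, Per3 was marked in replicate 1, at 17.3 FPKM, and Bhlhe41 in replicate 4, at 2.06 FPKM.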

How the results depend on the processing

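The 7 genes kept the sign of their log2 difference in 18 of 18 alternative settings. The ranges were 2.29 to 3.93 for Arntl, 1.78 to 3.94 for Npas2, 1.52 to 1.93 for Nfil3, 0.51 to 0.63 for Clock, 0.22 to 0.32 for Cry1, -0.62 to -0.43 for Rora and -0.86 to -0.71 for Cry2. A pseudocount of 1, which shrinks low genes by construction, gave 2.29 for Arntl, 1.78 for Npas2 and 1.52 for Nfil3. For Npas2, a pseudocount of 0.01 and limma voom on the recovered reads each gave 3.94. Arntl was at 3.92 and 3.93 in these settings, so Npas2 then had the larger difference. The number of genes called, 233, was 74 with a pseudocount of 1 and 154 with a mean FPKM of at least 1, where fewer genes were tested, and 171 to 299 when each lung was left out in turn. Other clock genes past the adjusted p numbered 17 to 19 when each lung was left out. Neighbours past it numbered 3 rather than 4 in 10 of 18 settings, where Tmem263 did not pass, with a limma adjusted p of 0.0558 by voom, 0.0528 without a filter and 0.0576 after quantile normalization. With the upstream 250 bases alone, TAGGTCA was found in 1 of the 7 genes and TAGGTTA in 0, since the window is shorter.

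The deviations of same-numbered IPF and sham lungs correlated between -0.02 and 0.095, and 3 of 5 IPF lungs correlated best with their own number. No correlation exceeded 0.1 and no label ties a number to a shared animal, litter or day, so the numbers were not taken to pair the samples; a weaker sharing was not tested. With a replicate block 202 genes were called, and 16 other clock genes passed, of which 1 rose. The cause of the lost call was not tested. Ratios cannot move with library scaling, so that alternative was not run. Depth limits Arntl and Npas2 in sham lungs, where few reads lay behind each value.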
